A study of Arabidopsis thaliana with 12 samples.

Results

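The phosphorylated pathway of serine synthesis is encoded in Arabidopsis by 6 genes, which were taken by name from the 37242 genes of the deposited tables: PGDH1 (AT4G34200), PGDH2 (AT1G17745), PGDH3 (AT3G19480), PSAT1 (AT4G35630), PSAT2 (AT2G17630) and PSP1 (AT1G18640). All 6 had reads in each library and passed the filter on low counts. The tissue was young leaves, and poly(A) RNA was sequenced in 12 libraries, 3 biological replicates in each of 4 groups. Each replicate pooled 15 plants. The genotypes were the reference accession Col-0 and npf8.4-1, a mutant of NPF8.4, a gene of the nitrate and peptide transporter family. The nature of the npf8.4-1 allele is not stated in the labels. The Col-0 day 0 and npf8.4-1 day 0 groups had received 5 mM KNO3 in hydroponic culture for 15 days. The Col-0 day 2 and npf8.4-1 day 2 groups had then spent 2 days without nitrogen. Plants of the day 2 groups were thus 2 days older as well, with no nitrogen-fed plants of their age among the 12 libraries, and depletion and age cannot be told apart.

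The pathway makes serine in plastids from 3-phosphoglycerate, an intermediate of glycolysis and of the Calvin-Benson cycle. Phosphoglycerate dehydrogenase (PGDH) oxidises 3-phosphoglycerate, phosphoserine aminotransferase (PSAT) adds an amino group taken from glutamate, and phosphoserine phosphatase (PSP) releases serine. Illuminated leaves also obtain serine from glycine in mitochondria through photorespiration, and the phosphorylated pathway is best known for its part in heterotrophic and growing tissues, where it supplies serine for tryptophan, one-carbon units and sulfur metabolism.

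Levels are given as TPM, the authors' length-scaled transcript measure (values sum to 1000000 in each library), in which different genes can be set side by side. Changes between groups are log2 fold changes of read counts with a standard error (SE), tested with the edgeR quasi-likelihood test and Benjamini-Hochberg adjustment over the 19416 genes tested, and a gene was called at an adjusted p under 0.05. The libraries held 28761674 to 34282716 exon reads. NPF8.4 had 174 to 568 reads in the Col-0 libraries and 10 to 47 in those of npf8.4-1. The first principal component, with 75.6% of the variance, separated the days. Replicate 3 of day 2 lay closer to day 0 in both genotypes (49.7 and 51.4) than the other 4 day 2 libraries (66.4 to 82.9). Scores fell from replicate 1 to replicate 3 in all 4 groups, however, so replicate 3 of day 0 was shifted the same way. At day 0, replicates 1, 2 and 3 scored −54.9, −64.4 and −75.9 for Col-0. The npf8.4-1 scores at day 0 were −55.4, −78.7 and −83.3. Mesophyll markers summed to 35943 to 52698 CPM (counts per 1000000 reads, with library sizes scaled by TMM as in the edgeR fit) in every library. Root markers summed to at most 0.54 CPM, with 2 of 5 at 0 in all libraries, and shoot meristem markers to at most 0.18 CPM, with 2 of 4 at 0. Markers of dividing cells fell in 8 of 8 cases in both genotypes, from summed levels of 279 to 397 CPM at day 0 to 80.1 to 130 CPM at day 2. Vascular markers rose in 4 of 7 cases in Col-0 and 6 of 7 in npf8.4-1, from 161 to 244 CPM to 397 to 467 CPM. In both genotypes most of this rise in CPM came from SUC2, SWEET11 and SWEET12. Their Col-0 means were 91.5, 37.8 and 5.62 CPM at day 0 and 229, 80.8 and 30.5 CPM at day 2. The remaining vascular markers moved less in CPM, with Col-0 means of 28.9 and 35.3 for XCP1 and 30.8 and 30.9 for ATHB8. Over all genes tested, 29.6% rose and 30.4% fell in Col-0, and 32.5% rose and 31.6% fell in npf8.4-1. Guard cell markers summed to 67.8 to 92.1 CPM at day 0 and 95.3 to 120 CPM at day 2, and epidermis markers to 799 to 996 and 659 to 913 CPM.

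On nitrogen depletion the 3 steps of the pathway did not move as a unit. In Col-0, PGDH2 rose, PGDH1, PSAT1 and PSAT2 fell, and PGDH3 and PSP1 did not pass the test. The same genes had the same calls in npf8.4-1. These 4 of 6 called members stand beside 60.0% of all genes called in Col-0 and 64.1% in npf8.4-1, so the share called was near that of the whole transcriptome. Of all genes, 29.6% rose and 30.4% fell in Col-0, and 32.5% rose and 31.6% fell in npf8.4-1. The median log2 fold change of the 6 genes was −0.23 in the Col-0 comparison and −0.22 in the npf8.4-1 comparison; over all genes tested it was 0.02 and 0.03.

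**Figure D1:**
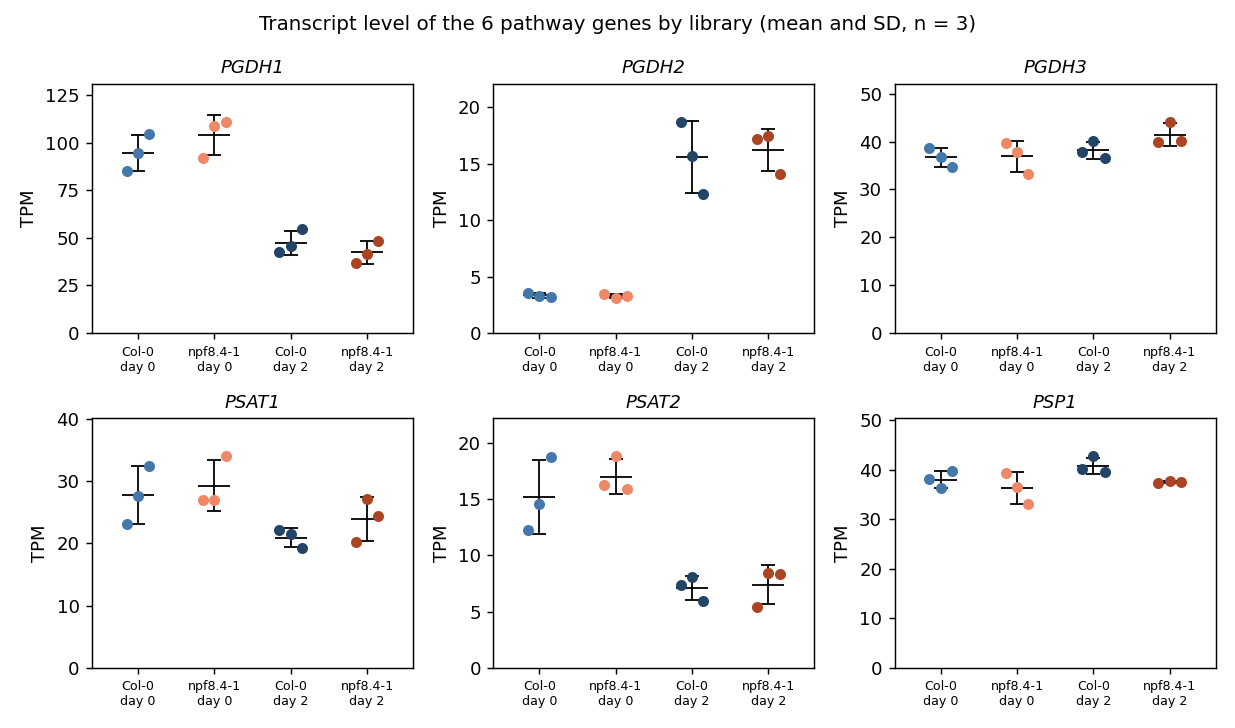
TPM (y axis, linear, from 0) of each pathway gene in the 12 libraries (points), with the mean and SD of 3 libraries per group (bars); blue is Col-0 and orange is npf8.4-1, with day 2 in the darker shade. PGDH1 lay at 85.3 to 111 TPM at day 0 and 37.0 to 54.5 at day 2, and PGDH2 at 3.14 to 3.55 and 12.4 to 18.7.

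The PGDH step is shared by 3 genes on 3 chromosomes. PGDH1, which is essential for embryo and pollen development, was the most abundant of them in nitrogen-fed leaves. Its level in Col-0 was 85.3, 94.4 and 104 TPM at day 0 and 42.3, 45.5 and 54.5 TPM at day 2. In npf8.4-1 it was 91.7, 109 and 111 TPM at day 0 and 37.0, 41.5 and 48.5 TPM at day 2. Every day 2 library lay below every day 0 library, and replicate 3 was the highest of its group in all 4 groups. PGDH1 fell by 1.04 on the log2 scale in Col-0 (SE 0.150, edgeR adjusted p = 6.76e-05) and fell by 1.39 in npf8.4-1 (SE 0.151, adjusted p = 5.06e-06). Without replicate 3 of day 2 in both genotypes, and with replicate 3 of day 0 kept, the changes were −1.22 and −1.51. With each library left out in turn they ran from −1.19 to −0.934 in Col-0 and from −1.505 to −1.302 in npf8.4-1.

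PGDH2, another plastid isoform, was the only one of the 6 genes that rose. Its level in Col-0 was 3.55, 3.28 and 3.16 TPM at day 0 and 18.7, 15.7 and 12.4 TPM at day 2. The npf8.4-1 libraries gave 3.49, 3.14 and 3.24 TPM at day 0 and 17.2, 17.5 and 14.1 TPM at day 2. The days did not overlap, and the lowest day 2 library of each genotype was replicate 3. That library also lay nearest to day 0 on the first principal component, where replicate 3 of day 0 was shifted the same way. The increase was 2.16 on the log2 scale in Col-0 (SE 0.128, edgeR adjusted p = 8.99e-08) and 2.21 in npf8.4-1 (SE 0.129, adjusted p = 6.25e-08). Leaving out replicate 3 of day 2 in both genotypes gave 2.26 and 2.30. With each library left out in turn the increase ran from 2.04 to 2.29 in Col-0 and from 2.16 to 2.30 in npf8.4-1. The gene was read in 148 to 187 counts per library at day 0 and in 567 to 935 at day 2, so it was the least deeply sampled PGDH gene.

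PGDH3, the isoform that a photosynthetic leaf expresses alongside PGDH1, did not change past the threshold. Its level in Col-0 was 38.6, 36.8 and 34.7 TPM at day 0 and 37.8, 40.1 and 36.6 TPM at day 2. For npf8.4-1 the values were 39.7, 37.8 and 33.3 TPM at day 0 and 40.0, 44.2 and 40.1 TPM at day 2. The days overlapped in Col-0, whereas in npf8.4-1 each day 2 library lay above the day 0 libraries, with the closest pair at 39.7 and 40.0 TPM. The log2 change was −0.0042 in Col-0 (95% interval −0.20 to 0.20, edgeR adjusted p = 0.974) and 0.07 in npf8.4-1 (−0.13 to 0.27, adjusted p = 0.526), and the sign in Col-0 turned with the scaling of the libraries.

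The opposite changes of PGDH1 and PGDH2 altered the make-up of the PGDH transcript pool. PGDH1 held 70.2% ± 3.23 (SD, n = 3) of the summed PGDH TPM in Col-0 at day 0 and 46.8% ± 5.21 at day 2. Its share in npf8.4-1 was 72.0% ± 3.67 and 42.2% ± 4.33. The share of PGDH2 in Col-0 was 2.48% ± 0.282 and 15.5% ± 3.50, and in npf8.4-1 it was 2.29% ± 0.262 and 16.3% ± 2.32. PGDH3 held 27.3% ± 2.95 and 37.7% ± 2.17 of the Col-0 pool and 25.8% ± 3.45 and 41.4% ± 2.08 of the mutant pool, although its own level did not change past the threshold. The summed PGDH level was 127 to 142 TPM in Col-0 and 135 to 150 TPM in npf8.4-1 at day 0, and 98.9 to 103 TPM and 94.1 to 103 TPM at day 2. The rise of PGDH2 was thus smaller in TPM than the fall of PGDH1, and all 6 day 2 sums lay below all 6 day 0 sums. These shares are a description and were not tested.

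**Figure D2:**
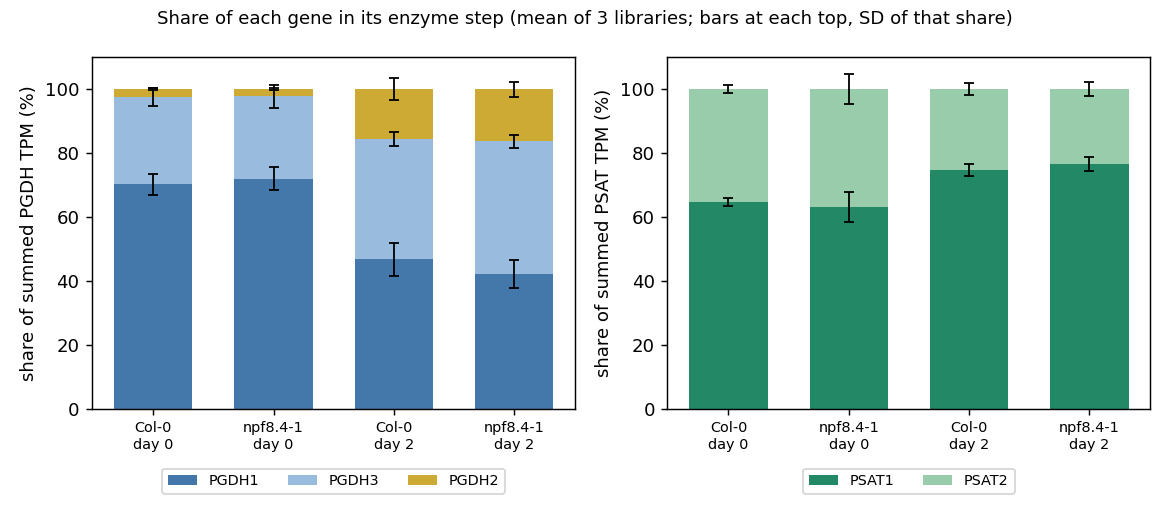
Share of each gene in the summed TPM of its enzyme step (y axis, percent), PGDH on the left and PSAT on the right, for the 4 groups (x axis). Segments are means of 3 libraries and each bar at a segment's top is the SD of that share; PGDH1 fell from 70.2% to 46.8% of PGDH in Col-0 and PGDH2 went from 2.48% to 15.5%.

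The 3 PGDH genes are well separated in sequence. Their coding sequences in the reference annotation were 68.0% identical between PGDH1 and PGDH2, 73.5% between PGDH1 and PGDH3 and 66.9% between PGDH2 and PGDH3. No stretch of 50 bases was shared by any pair of their transcripts. A stretch of 90 coding bases that opens with the longest run common to PGDH1 and PGDH3 (29 bases) shows how the copies differ. It starts at coding base 571 of PGDH1, 715 of PGDH2 and 526 of PGDH3, and capitals mark the 22 bases of PGDH2 and the 18 bases of PGDH3 that differ from PGDH1.
PGDH1: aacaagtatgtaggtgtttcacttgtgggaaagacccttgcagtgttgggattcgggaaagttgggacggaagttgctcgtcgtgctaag
PGDH2: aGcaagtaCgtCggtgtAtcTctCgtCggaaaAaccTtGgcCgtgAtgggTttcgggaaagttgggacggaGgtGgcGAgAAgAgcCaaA
PGDH3: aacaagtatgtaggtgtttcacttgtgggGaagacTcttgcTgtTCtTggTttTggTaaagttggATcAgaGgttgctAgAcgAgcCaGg

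PGDH2 lies on chromosome 1, 6100964 to 6105347, plus strand (TAIR10). Its annotated span shares 1020 bases with AT1G17744 and 579 bases with the long non-coding AT1G05317, both on the minus strand. Whether the counting used strand is not given in any source used here. AT1G17744 had 0 to 4 reads per library and AT1G05317 had 0. PGDH1 (chromosome 4, 16373731 to 16376666, minus strand) shares 6 bases with AT4G34190 on the same strand, which had 5421 to 8218 reads. PGDH3 (chromosome 3, 6752422 to 6754785, plus strand) shares 171 bases with the antisense AT3G19490, which had 1902 to 2562 reads and log2 changes of 0.01 and 0.05 that did not pass.

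Because PGDH1 and PGDH2 moved in opposite directions, the sequences before their annotated starts are shown with that of PGDH3, from the RefSeq TAIR10.1 reference, whose gene starts are the same as in the deposited tables for all 6 genes. The windows are chr4:16376667-16376916 (minus strand), chr1:6100714-6100960 (plus strand) and chr3:6752172-6752421 (plus strand), up to 250 bases and without bases that belong to another gene. Capitals mark matches on either strand to GAATC, the core letters bound by NIGT1/HHO repressors of nitrogen responses, and to TATAAA, the TATA box.
PGDH1: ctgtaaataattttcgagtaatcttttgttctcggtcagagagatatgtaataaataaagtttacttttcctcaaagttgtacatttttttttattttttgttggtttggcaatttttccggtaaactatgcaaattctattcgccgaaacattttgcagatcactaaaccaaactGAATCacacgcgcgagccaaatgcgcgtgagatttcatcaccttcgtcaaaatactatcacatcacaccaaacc
PGDH2: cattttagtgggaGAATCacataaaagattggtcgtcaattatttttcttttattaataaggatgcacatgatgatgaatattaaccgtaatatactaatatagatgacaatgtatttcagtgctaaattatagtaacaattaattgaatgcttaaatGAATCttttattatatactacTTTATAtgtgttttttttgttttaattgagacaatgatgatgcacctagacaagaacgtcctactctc
PGDH3: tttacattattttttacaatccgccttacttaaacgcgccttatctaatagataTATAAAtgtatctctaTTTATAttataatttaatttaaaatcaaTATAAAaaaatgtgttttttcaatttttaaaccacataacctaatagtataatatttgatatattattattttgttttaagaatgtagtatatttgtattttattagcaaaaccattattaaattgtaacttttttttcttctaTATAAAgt

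PGDH1 held 1 GAATC match, 74 bases before its start, and PGDH2 held 2, at 237 and 92 bases. PGDH3 held none. GAATC is common, being present in 38.9% of all 27443 windows of 250 bases. TATAAA was found once before PGDH2, at 71 bases, and 4 times before PGDH3, and in 47.4% of all windows. AAACCCTA (the telo-box), TGGGCC or TGGGCT (site II) and CACGTG (the G-box) occurred in 4.49%, 19.2% and 6.49% of all windows and in none of those of the 6 pathway genes. These are letter matches, not measured binding sites.

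The PSAT step fell in both of its genes. PSAT1, the main plastid isoform, was at 23.1, 27.6 and 32.5 TPM in Col-0 at day 0 and at 22.1, 21.5 and 19.2 TPM at day 2. The mutant was at 26.9, 27.0 and 34.0 TPM at day 0 and at 20.2, 27.1 and 24.3 TPM at day 2. The days did not overlap in Col-0 but did in npf8.4-1, where replicate 2 of day 2 exceeded 2 of the day 0 libraries. PSAT1 fell by 0.46 on the log2 scale in Col-0 (SE 0.122, edgeR adjusted p = 0.00552) and by 0.39 in npf8.4-1 (SE 0.122, adjusted p = 0.0138). The call in npf8.4-1 was lost when libraries were scaled by their totals alone (−0.31, adjusted p = 0.0663), without replicate 3 of npf8.4-1 at day 0 (adjusted p = 0.0740) and without replicate 1 of npf8.4-1 at day 2 (adjusted p = 0.0643).

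PSAT2, the other aminotransferase gene, changed by more. It was at 12.3, 14.5 and 18.7 TPM in Col-0 at day 0 and at 7.38, 8.05 and 5.92 TPM at day 2. Mutant libraries were at 16.3, 18.8 and 15.9 TPM at day 0 and at 5.38, 8.45 and 8.34 TPM at day 2. No day 2 library reached the lowest day 0 library. PSAT2 fell by 1.15 on the log2 scale in Col-0 (SE 0.180, edgeR adjusted p = 0.000125) and fell by 1.302 in npf8.4-1 (SE 0.179, adjusted p = 3.63e-05). The share of PSAT2 in the summed PSAT TPM was 35.3% ± 1.16 (SD, n = 3) at day 0 and 25.3% ± 1.84 at day 2 in Col-0, while the mutant had 36.9% ± 4.63 and 23.4% ± 2.26. The summed PSAT level was 35.4 to 51.2 TPM at day 0 and 25.1 to 29.6 TPM at day 2 in Col-0, while the mutant had 43.2 to 49.9 and 25.6 to 35.6 TPM.

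PSAT1 and PSAT2 are single-exon genes whose coding sequences are 85.6% identical. Of the 1615 stretches of 50 bases in the PSAT1 transcript, 20 occur unchanged in PSAT2, all within 1 run of 69 bases that starts at coding base 402 of PSAT1 and 372 of PSAT2. Reads confined to this run could have come from either gene, and how they were counted is not given in any source used here. The run is shown because reads confined to it cannot tell the PSAT genes apart, and capitals mark bases identical in both genes.
PSAT1 and PSAT2: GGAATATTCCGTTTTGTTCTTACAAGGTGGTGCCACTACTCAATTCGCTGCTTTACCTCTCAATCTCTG

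The PSAT genes lie in duplicated neighbourhoods. On chromosome 4, PSAT1 (16904059 to 16905722, plus strand) stands between CYCB2;2, a B-type cyclin gene of mitosis, and SERAT3;2, a serine acetyltransferase gene of cysteine synthesis. On chromosome 2, PSAT2 (7666548 to 7668065, plus strand) stands between CYCB2;1 and SERAT3;1, paralogs of the same genes in the same order. The cyclin genes were added for their position after their values had been seen. The intergenic bases before each PSAT gene are few, 57 at chr4:16904002-16904058 and 25 at chr2:7666523-7666547 (plus strand, TAIR10.1), and are shown because the cyclin gene ends where they begin.
PSAT1: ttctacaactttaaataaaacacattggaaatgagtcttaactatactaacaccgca
PSAT2: gtcgttttcgttgttttcactttga

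Both cyclin neighbours fell with the PSAT genes. CYCB2;2 was at 8.17 to 12.6 TPM in Col-0 and 8.36 to 13.9 TPM in npf8.4-1 at day 0, and at 3.12 to 4.30 and 2.29 to 4.53 TPM at day 2. It fell by 1.51 on the log2 scale in Col-0 (SE 0.248, edgeR adjusted p = 0.000225) and by 1.69 in npf8.4-1 (SE 0.248, adjusted p = 7.67e-05). CYCB2;1 fell by 1.85 (SE 0.359, adjusted p = 0.000772) and by 2.09 (SE 0.367, adjusted p = 0.000304), from 3.23 to 7.14 TPM over both genotypes at day 0 to 0.544 to 1.79 TPM at day 2. The GAATC matches in the 250 bases before PSAT1 (1, at 112 bases) and PSAT2 (2, at 170 and 94 bases) lie inside the annotated cyclin genes.

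The downstream neighbours moved in opposite directions. SERAT3;2, next to PSAT1, was at 2.57, 1.94 and 2.50 TPM in Col-0 at day 0 and 0.406, 0.449 and 0.271 TPM at day 2. Its level in npf8.4-1 was 1.93, 1.69 and 2.25 TPM and then 0.731, 0.845 and 0.734 TPM. All day 2 libraries lay below the day 0 libraries, and those of Col-0 lay below those of npf8.4-1. SERAT3;2 fell by 2.69 on the log2 scale in Col-0 (SE 0.240, edgeR adjusted p = 1.28e-06) and by 1.43 in npf8.4-1 (SE 0.218, adjusted p = 8.83e-05). The difference between these changes, 1.26 (SE 0.327), did not pass (adjusted p = 0.219), nor did that between the genotypes at day 2 (1.01, SE 0.259, adjusted p = 0.0835). SERAT3;2 rested on 8 to 87 reads per library and overlaps the end of PSAT1 by 144 bases on the opposite strand.

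SERAT3;1, next to PSAT2 with 12 bases between them, rose. Its level in Col-0 was 8.62, 6.70 and 7.34 TPM at day 0 and 13.9, 14.4 and 10.1 TPM at day 2. Those of npf8.4-1 were 8.57, 5.69 and 5.33 TPM and then 15.3, 17.5 and 14.3 TPM. Here every day 2 library lay above the day 0 libraries. The increase was 0.69 on the log2 scale in Col-0 (SE 0.170, edgeR adjusted p = 0.00347) and 1.17 in npf8.4-1 (SE 0.171, adjusted p = 6.04e-05), while PSAT2 beside it fell.

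**Figure D3:**
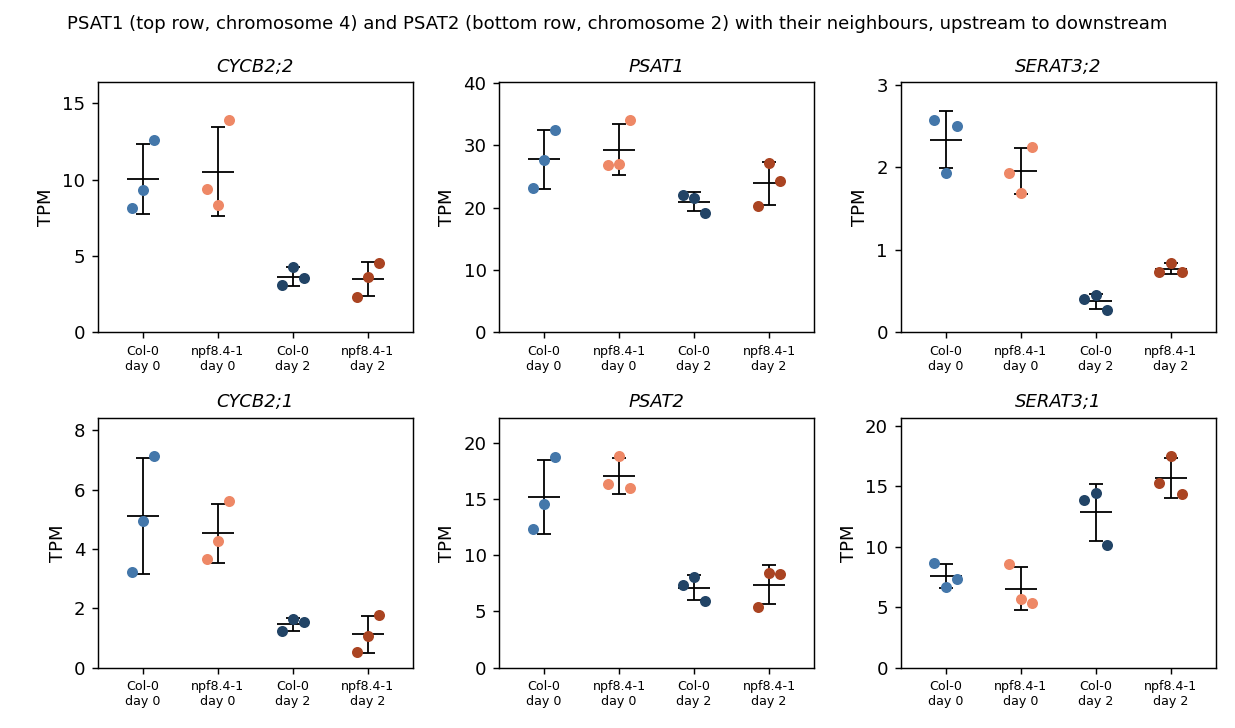
TPM (y axis, linear, from 0) of the PSAT genes and their neighbours in the 12 libraries (points; bars, mean and SD of 3), with PSAT1 between CYCB2;2 and SERAT3;2 in the top row and PSAT2 between CYCB2;1 and SERAT3;1 in the bottom row. The means of the cyclins and PSAT genes lay lower at day 2, with overlap between the days for PSAT1 in npf8.4-1. In Col-0, SERAT3;2 fell by 2.69 and SERAT3;1 rose by 0.69 on the log2 scale.

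PSP1, the single phosphatase gene and the last step, did not pass the test in either genotype. It was at 38.1, 36.2 and 39.7 TPM in Col-0 at day 0 and at 40.0, 42.6 and 39.4 TPM at day 2. In npf8.4-1 it was at 39.4, 36.5 and 33.0 TPM at day 0 and at 37.4, 37.8 and 37.5 TPM at day 2. The days overlapped in both genotypes. The log2 change was 0.042 in Col-0 (95% interval −0.13 to 0.22, edgeR adjusted p = 0.678) and −0.045 in npf8.4-1 (−0.22 to 0.13, adjusted p = 0.642). PSP1 (chromosome 1, 6416169 to 6418693, minus strand) shares 291 bases with the antisense AT1G18630, which had 159 to 586 reads and fell by 1.21 and 1.27 on the log2 scale. Its window held no match to any of the 5 motifs.

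**Figure D4:**
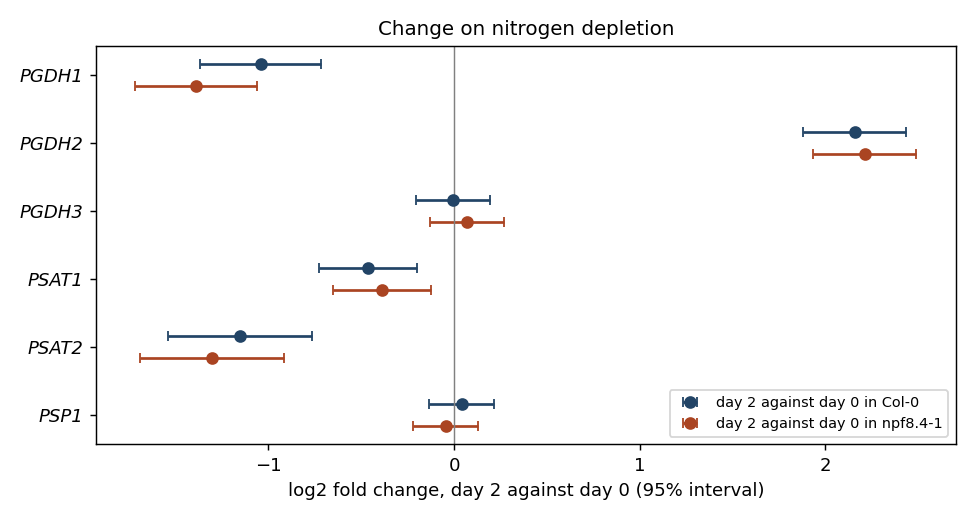
Log2 fold change of read counts, day 2 against day 0 (x axis), for each pathway gene in Col-0 (blue) and npf8.4-1 (orange); points are estimates of the edgeR fit and lines are 95% intervals. The intervals of PGDH3 and PSP1 include 0 in both genotypes, PGDH2 lies at 2.16 and 2.21, and PGDH1, PSAT1 and PSAT2 lie below 0.

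The fall of PGDH1, PSAT1 and PSAT2 ran beside that of the dividing cell markers described above. PCNA1, the sliding clamp of DNA replication, fell by 1.74 on the log2 scale in Col-0 and fell by 2.06 in npf8.4-1. In bulk leaves, fewer cells of a type and less RNA per cell cannot be told apart, and the part of dividing cells in these decreases was not tested. The rise of PGDH2 ran beside increases of vascular markers (4 of 7 in Col-0 and 6 of 7 in npf8.4-1) and of guard cell markers (3 of 5 in both). Among them were the phloem sucrose transporter gene SUC2 (1.32 and 1.53) and the guard cell anion channel gene SLAC1 (1.29 and 1.79), whereas the vascular regulator gene ATHB8 did not pass (0.0045 and 0.013) and the guard cell gene FAMA fell by 0.22 in Col-0. Other markers moved too. Epidermis markers fell in 2 of 3 cases in both genotypes. Of 5 mesophyll markers, 1 rose and 0 fell in Col-0, and 1 rose and 1 fell in npf8.4-1. Among all genes tested, 29.6% rose and 30.4% fell in Col-0, and 32.5% rose and 31.6% fell in npf8.4-1. The part of any of these cell types in the rise of PGDH2 was not tested either.

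The order of the levels changed with depletion. In Col-0 at day 0 the mean TPM was 94.7 ± 9.48 (SD, n = 3) for PGDH1, 38.0 ± 1.74 for PSP1, 36.7 ± 1.97 for PGDH3, 27.7 ± 4.69 for PSAT1, 15.2 ± 3.28 for PSAT2 and 3.33 ± 0.198 for PGDH2. PSP1 and PGDH3 overlapped in their libraries, and no other neighbours in this order did. At day 2 the order was PGDH1 at 47.4 ± 6.30, PSP1 at 40.7 ± 1.70, PGDH3 at 38.2 ± 1.82, PSAT1 at 20.9 ± 1.54, PGDH2 at 15.6 ± 3.19 and PSAT2 at 7.12 ± 1.09. Across libraries PGDH1 now overlapped PSP1, and PSP1 overlapped PGDH3. Within each library, however, PGDH1 stood above PSP1, PSP1 above PGDH3 and PGDH2 above PSAT2. In npf8.4-1 the day 0 means stood in the same order except that PGDH3, at 36.9 ± 3.29 TPM, came before PSP1, at 36.3 ± 3.20. PGDH3 and PSP1 overlapped across libraries, although PGDH3 stood slightly above PSP1 within each. PSP1 and PSAT1 (29.3 ± 4.05) overlapped too, and their order turned in replicate 3 (33.0 and 34.0 TPM). The npf8.4-1 means at day 2 were 42.3 ± 5.81 for PGDH1, 41.4 ± 2.38 for PGDH3, 37.5 ± 0.211 for PSP1, 23.9 ± 3.49 for PSAT1, 16.3 ± 1.87 for PGDH2 and 7.39 ± 1.74 for PSAT2.

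The mutant was compared with Col-0 at each day to ask whether NPF8.4 bears on these genes. None of the 6 genes passed at day 0, where 0.149% of all genes were called (0.0309% higher and 0.118% lower), or at day 2, where 1.44% were called (0.484% higher and 0.953% lower). The edgeR adjusted p was 0.968 to 1 at day 0 and 0.528 to 0.968 at day 2. At day 0 the log2 differences, npf8.4-1 minus Col-0, lay between −0.06 for PSP1 and 0.19 for PSAT2 (95% interval −0.19 to 0.56). At day 2 they lay between −0.20 for PGDH1 (−0.52 to 0.12) and 0.17 for PSAT1 (−0.10 to 0.43). Single libraries moved these small differences, and with each left out in turn PSAT2 at day 0 ran from 0.05 to 0.33, PGDH1 at day 2 from −0.32 to −0.05 and PSAT1 at day 2 from 0.08 to 0.27. For PGDH1 the depletion change in the mutant less that of Col-0 was −0.35 on the log2 scale (95% interval −0.80 to 0.11, edgeR adjusted p = 0.679), and it was −0.46 without replicate 3 of npf8.4-1 at day 2 and −0.20 without replicate 3 of Col-0 at day 2. For the other 5 genes this difference lay between −0.15 and 0.08. In the edgeR fit of all 12 libraries 0 of 19416 genes passed this last test, with 1759 at an unadjusted p under 0.05. It called 43 with the replicate number as a block, 6 without replicate 1 of Col-0 at day 2 and 262 with DESeq2, and no pathway gene was among them.

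The genes with the most similar pattern over the 12 libraries were listed for each pathway gene. Likeness was the root mean square difference of centred log2 CPM, taken over 14078 genes with a mean of at least 5 CPM, and the 2 nearest genes are given for each member as a description. The members' own SD over the libraries was 0.67 for PGDH1, 1.14 for PGDH2, 0.27 for PSAT1 and 0.68 for PSAT2 on the same scale. For PGDH1 they were EIF3G1, a translation initiation factor gene, at 0.068 and EMB3147 at 0.069. PGDH2 was nearest to AT4G22840 at 0.092 and SPD1, named for seedling plastid development, at 0.106. PSAT1 was nearest to TO2, a thioredoxin gene, at 0.082 and EDA18 at 0.083, and PSAT2 to AT4G04180 at 0.098 and AT3G02650 at 0.118. PGDH3 lay nearest to HBP5 (0.061) and IMPL1 (0.062), and PSP1 to TSC10A (0.057) and AT4G02620 (0.068). PGDH3 and PSP1 had an SD of only 0.11 and 0.095, so small distances arise easily for them, and a shared pattern was not tested.

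Genes that supply 3-phosphoglycerate or remove it showed mixed changes. Of 11 tested, 3 rose and 6 fell in each genotype, with median log2 changes of −0.26 in Col-0 and −0.32 in npf8.4-1. Among all genes tested, 29.6% rose and 30.4% fell in Col-0, and 32.5% rose and 31.6% fell in npf8.4-1. The counts of the lists that follow stand beside these same shares. TPT, the translocator that exports triose phosphate and 3-phosphoglycerate from chloroplasts, rose by 0.76 (SE 0.133) and 0.93 (SE 0.133). ENO1, the plastid enolase, fell by 0.80 and 0.84, and CUE1, which imports phosphoenolpyruvate into plastids, fell by 0.40 and 0.53. IPGAM1, a phosphoglycerate mutase gene, fell by 0.59 and 0.72.

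In the photorespiratory route to serine, every gene that passed the test rose. Of 10 genes of mitochondrial glycine conversion, 4 rose and 0 fell in Col-0, and 5 rose and 0 fell in npf8.4-1, with medians of 0.13 and 0.21. Over all genes tested, 60.0% were called in Col-0 (29.6% higher) and 64.1% in npf8.4-1 (32.5% higher). GLDP1, the decarboxylase subunit of glycine decarboxylase, rose by 1.00 (SE 0.106, edgeR adjusted p = 5.47e-06) in Col-0 and 1.20 (SE 0.107, adjusted p = 9.34e-07) in npf8.4-1. SHM1, the mitochondrial hydroxymethyltransferase that joins glycine and a one-carbon unit to serine, rose by 0.70 and 0.99. Of 3 genes that lead from serine to 3-phosphoglycerate in photorespiration, AGT1 (0.50 and 0.76) and HPR1 (0.53 and 0.71) rose in both genotypes and GLYK did not pass (0.04 and 0.17). The change of the phosphorylated pathway was not tested against that of these lists.

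**Figure D5:**
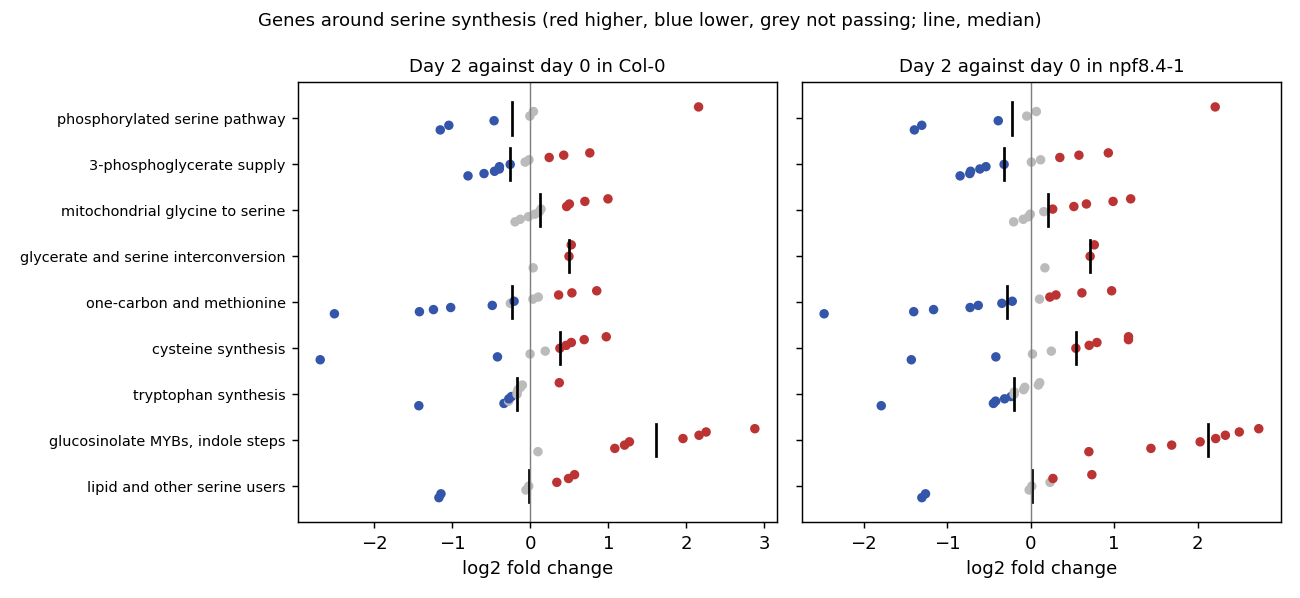
Log2 fold change of read counts, day 2 against day 0 (x axis), of each tested gene in the phosphorylated pathway and 8 related lists (y axis), in Col-0 (left) and npf8.4-1 (right). Points are genes, red where they rose, blue where they fell and grey where they did not pass, and black lines are medians; the pathway's median was −0.23 in Col-0, and that of the MYB and indole list was 1.61.

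Pathways that use serine were split as well. One-carbon and methionine genes rose in 3 and fell in 6 of 12 in Col-0, and in 4 and 7 in npf8.4-1, with medians of −0.23 and −0.28. FOLD4, a plastid enzyme gene of folate interconversion, fell by 2.51 (SE 0.157) in Col-0 and fell by 2.47 (SE 0.156) in npf8.4-1, SHM3, the plastid hydroxymethyltransferase, fell by 1.42 and 1.40, and MS3, the plastid methionine synthase, fell by 1.02 and 1.16. MS2, a cytosolic methionine synthase, rose by 0.85 and 0.97. Cysteine synthesis genes rose in 5 and fell in 2 of 9 in both genotypes, with medians of 0.38 and 0.54. Among the serine acetyltransferases, SERAT1;1 (0.38 and 0.54), SERAT2;1 (0.97 and 1.17) and SERAT2;2 (0.53 and 0.80) rose together with SERAT3;1.

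Tryptophan synthesis, whose last step joins serine to indole, rose in 1 and fell in 4 of 11 genes in Col-0 and in 0 and 5 in npf8.4-1, with medians of −0.17 and −0.20. PAI1, a phosphoribosylanthranilate isomerase gene, fell by 1.43 and 1.79, and since it has near-identical copies its separate count is uncertain. Among MYB regulators of glucosinolates and the first steps of indole glucosinolate synthesis, 7 of 8 rose in Col-0 and 8 of 8 in npf8.4-1, with medians of 1.61 and 2.12. Of all genes tested, 29.6% rose in Col-0 and 32.5% in npf8.4-1. CYP79B2, which turns tryptophan into its oxime, rose by 2.16 (SE 0.170) and 2.50 (SE 0.173). MYB34 and MYB51 have been described as activators of phosphorylated pathway genes. MYB51, named after its values were seen, rose by 2.88 (SE 0.394, edgeR adjusted p = 8.95e-05) and 2.33 (SE 0.417, adjusted p = 0.000504). The pathway genes went both ways, with PGDH2 higher, PGDH1, PSAT1 and PSAT2 lower, and PGDH3 and PSP1 not passing. The part of MYB51 in these changes was not tested.

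MYB34 was the only listed gene, apart from NPF8.4, that differed between the genotypes. It averaged 10.4 ± 0.613 CPM (SD, n = 3) in Col-0 and 14.8 ± 1.01 in npf8.4-1 at day 0, and 11.2 ± 1.02 and 24.0 ± 3.36 CPM at day 2. At day 2 it was higher in npf8.4-1 by 1.10 on the log2 scale (SE 0.116, edgeR adjusted p = 0.000894). Its depletion change was 0.10 in Col-0, which did not pass, and 0.70 in npf8.4-1, which did, and the difference between them did not pass (adjusted p = 0.250). MYB51 stood the other way round at day 2, at 23.3 ± 8.04 CPM in Col-0 and 9.37 ± 3.85 in npf8.4-1, and this difference did not pass. No pathway gene differed between the genotypes at day 2 past the threshold. The part of either MYB gene in the levels of the pathway genes was not tested.

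Other users of serine included both seryl-tRNA synthetase genes, which fell in both genotypes. SERRS, the cytosolic enzyme, fell by 1.14 (SE 0.115) and 1.26 (SE 0.115), and OVA7, the organellar enzyme, fell by 1.17 in Col-0 and fell by 1.301 in npf8.4-1 (SE 0.128 in both). SDC1, a serine decarboxylase gene, rose by 0.57 and 0.73, and LCB2B, a subunit of serine palmitoyltransferase, by 0.34 and 0.27. Over these 7 genes, 3 rose and 2 fell in Col-0 and 2 rose and 2 fell in npf8.4-1, with medians of −0.02 and 0.01.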

How the data were processed

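Titles, genotype labels and time labels gave each library's group and replicate number. The authors deposited, per library, a table of exon read counts per gene with TPM and RPKM values. Per the submitters' processing notes, bcl2fastq 2.17.1.14 and the TAIR10 build were used; the aligner, counter and strand setting are not given in any source used here. Of 37242 genes, 36810 matched the TAIR10.1 reference and 36794 had the same start and end.

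Counts of all 12 libraries were fitted together as 4 group means (edgeR 4.0.16 in R 4.3.3, TMM, filterByExpr, robust quasi-likelihood), with Benjamini-Hochberg adjustment over 19416 genes. The fit was tested on simulated data in which a small part of the genes changed, in Col-0 day 2 alone. That setting did not cover changes as broad as those on depletion here. The pathway genes and gene lists were chosen with earlier results of these data known. Up to 4 genes per list and comparison, those with the smallest adjusted p under 0.05, were named; SERAT3;1 and SERAT3;2 always were. PCNA1, SUC2, SWEET11, SWEET12, XCP1, SLAC1, ATHB8, FAMA, GLYK, SERAT2;1 and MYB51, and genes beside or overlapping a member, were named outside this rule with their values seen. Replicate libraries differed by more than sampling noise. No protein table was used, so coding sequences were compared. Alternatives were other scalings, filters, DESeq2 1.42.0, fewer libraries and RPKM shares.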

Additional observations from a re-analysis of the deposited data

How the results depend on the processing

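The depletion calls of PGDH1, PGDH2 and PSAT2 in both genotypes and of PSAT1 in Col-0 held in all 20 alternatives. PSAT1 in npf8.4-1 held in 17, and gave −0.311 with library totals alone and −0.477 to −0.284 with each library left out. The other depletion changes of members passed nowhere, and estimates near 0 changed sign. PGDH3 in Col-0 was 0.00647 with DESeq2 size factors, 0.00985 with the filter of 1 CPM, 0.00573 with DESeq2 and 0.0417 with library totals, and PSP1 in npf8.4-1 was 0.0307 with library totals. With each library left out, depletion in Col-0 ran from −0.0720 to 0.0924 for PGDH3 and −0.000719 to 0.101 for PSP1, and in npf8.4-1 from −0.0162 to 0.143 for PGDH3 and −0.125 to 0.0130 for PSP1. The genotype difference at day 0 ran from −0.0752 to 0.0600 for PGDH2, −0.0495 to 0.103 for PGDH3, −0.00819 to 0.187 for PSAT1 and −0.109 to 0.0232 for PSP1. At day 2 it ran from −0.0785 to 0.160 for PGDH2 and −0.0667 to 0.214 for PSAT2, which was −0.139 without replicate 3 of day 2 in both genotypes. The interaction ran from −0.0680 to 0.172 for PGDH2, −0.0176 to 0.141 for PGDH3, −0.0198 to 0.179 for PSAT1 and −0.296 to 0.0290 for PSAT2.

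Counts of all genes called moved more. The genotype count at day 0, 29, became 173 with the replicate block and 225 with DESeq2, and 12 to 37 with each library left out. At day 2 the count of 279 became 615 with the block, 771 with DESeq2, 130 with only the groups compared, 44 without replicate 3 of day 2 in both genotypes and 29 to 375 with each library left out. The interaction count of 0 became 43 with the block, 262 with DESeq2 and 0 to 6 with each library left out. The labels tie the replicate numbers to no shared batch or day, and deviations of same-number libraries correlated above 0.1 in 10 of 18 pairs (−0.173 to 0.418), short of all pairs, so the numbers were not used as pairs; 8 of 12 libraries correlated best with their own number, a hint from the data and not the design. The block changed no call of a pathway gene. The genes named by the rule, SERAT3;1, SERAT3;2 and the cyclin neighbours were refitted as well. Of these 1418 refits, 1409 kept their call, and ASA1, ASA2, TSB2 and PAI2 lost theirs in the other 9. The causes were not tested. Scaling by library totals moved the median of all genes by up to 0.10 on the log2 scale, in npf8.4-1. Low counts limit SERAT3;2 (8 to 87 reads), and the tests speak of the spread between these pools of plants.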
